A study of Mus musculus with 22 samples.

Results

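The cytosolic ribosomal protein genes are the genes whose symbol is Rpl or Rps followed by digits and at most 1 closing letter, together with Rplp0, Rplp1, Rplp2 and Rpsa. The rule picked 79 of the 15725 gene symbols in the series table by name alone. They comprise 46 genes of the large subunit, 30 of the small subunit and the 3 paralogs Rpl3l, Rpl39l and Rps27l. Fau, Rps3a1 and Rack1 also encode ribosomal proteins but have other names, and are described apart. RNA was sequenced from 22 libraries of primary microglia, the resident macrophages of the brain, shaken off mixed glial cultures from the cortex of C57BL/6 mice aged 1 to 3 days.

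Every culture was stimulated for 24 h with 100 ng/ml of lipopolysaccharide (LPS), a bacterial surface molecule sensed by Toll-like receptor signalling. In 5 libraries LPS was given with 10 nM bafilomycin A1, an inhibitor of the vacuolar proton pump (LPS+Baf A1), and in 6 with 50 nM CLA (LPS+CLA). In 5 libraries the cells had first been transfected for 48 h with 50 nM of an siRNA against the autophagy gene Atg5 (LPS+siAtg5), and 3 libraries are labelled LPS+dNC, the comparator that the design text sets against them. The last 3 libraries had LPS alone. What CLA and dNC stand for is not written out in the labels. Nor is it stated whether replicates were separate cultures, so the p-values measure only how far these libraries spread, and that spread may be technical.

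Each cytosolic ribosome holds nearly every ribosomal protein once, built around ribosomal RNA in a small subunit that reads the messenger RNA and a large subunit that forms peptide bonds. The genes are transcribed at high levels in growing cells. Their messenger RNAs usually begin with a C followed by a run of C and T (U in RNA), the 5′ terminal oligopyrimidine tract, through which the kinase complex mTORC1 and the binding protein LARP1 control their translation and stability.

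RefSeq start sites on GRCm38.p6 were found for 59 of the 79 genes. In a window from 15 bases before to 15 bases after the start, read on the transcribed strand only, 35 of these 59 genes (59.3%) held a C followed by at least 5 bases that were each C or T. The same letters occurred in 6883 of all 27025 genes with a start site (25.5%). A match is a description of the letters and does not show that the tract is used. The windows below belong to the genes on which the results turn, and capitals mark each such run.
Rps6, chr4:86857353-86857382, minus strand: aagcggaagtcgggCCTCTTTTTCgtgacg
Rps15a, chr7:118116133-118116162, minus strand: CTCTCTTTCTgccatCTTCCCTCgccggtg
Rpl22, chr4:152324421-152324450, plus strand: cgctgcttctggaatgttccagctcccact
Rpl39, chrX:37085208-37085237, minus strand: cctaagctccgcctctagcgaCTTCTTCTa
Rpl35, chr2:39005117-39005146, minus strand: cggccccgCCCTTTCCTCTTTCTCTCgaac
Rps24, chr14:24490663-24490692, plus strand: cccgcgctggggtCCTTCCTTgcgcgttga
Rpsa, chr9:120127751-120127780, plus strand: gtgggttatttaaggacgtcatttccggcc
Of the genes very low in LPS+dNC, Rps6 held 1 run and Rps15a held 2. Rpl39 and Rpl35, which had the largest rises there against LPS, held 1 run each. No run lay in this window of Rpl22 or Rpsa, nor in the other start-site window listed for Rpl22. Rps24 held 1 run in the window shown and none in its other listed window.

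Values are FPKM, fragment counts divided by transcript length and library size, which the authors deposited for each gene and library. No read counts were used, so the depth behind a value is unknown. No unit stands in the column headers of LPS+dNC, whose values were read as FPKM. Atg5 was at 12.6 to 13.5 FPKM in LPS+siAtg5, against 21.4 to 24.3 in LPS+dNC and 19.8 to 20.4 in LPS. All 11 microglia markers had values in every group, with sums of 4104 to 4227 FPKM in LPS+Baf A1, 4860 to 4981 in LPS+CLA, 4080 to 4299 in LPS+siAtg5, 3115 to 3392 in LPS+dNC and 4191 to 4367 in LPS. The libraries LPS+CLA replicate 2, LPS+dNC replicate 1 and LPS replicate 3 stood apart from their groups, and counts without all 3 of them are given with the results. No cut-off for standing apart is given here. LPS+CLA replicate 2 had the lowest ribosomal sum of its group (23520 FPKM) and LPS replicate 3 the highest of its group (19061 FPKM). Leaving them out therefore widens the rises against LPS with Baf A1, CLA and siAtg5, and is no independent check of those rises.

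The ribosomal protein genes were among the most abundant transcripts of these cells. Averaged over the 22 libraries, 74 of the 79 genes reached at least 100 FPKM, and 65 ranked among the top 500 of the table. Rps24, a small-subunit protein, had the highest mean at 812 FPKM, followed by the stalk protein Rplp0 at 532, the small-subunit protein Rps9 at 514, Rpl23a at 511 and Rpl41, the shortest ribosomal protein, at 491. The lowest were Rpl39 at 79.5 FPKM, Rps27l at 76.5, Rps20 at 31.3 and Rpl39l, a paralog known from testis, at 1.78. Rpl3l, a paralog restricted to muscle, stayed at or below 0.09 FPKM in every library and was listed at 0 in all LPS+Baf A1 and LPS libraries. It was the only one of the 79 that did not reach 1 FPKM in 3 libraries, which left 78 genes among the 11070 tested.

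The summed level of the 79 genes was higher in the LPS+Baf A1, LPS+CLA and LPS+siAtg5 libraries than in every LPS library. It was 24677, 24964, 23845, 23901 and 22882 FPKM in LPS+Baf A1, 23520 to 28908 (median 28062) in LPS+CLA, 21147, 22659, 21462, 23828 and 23144 in LPS+siAtg5, 22046, 19062 and 18537 in LPS+dNC, and 15857, 17084 and 19061 in LPS. The lowest LPS+CLA value was that of replicate 2, and the other 5 LPS+CLA libraries lay between 27122 and 28908 FPKM. As a share of all FPKM, the genes held 4.61 ± 0.13% in LPS+Baf A1, 5.32 ± 0.39% in LPS+CLA, 4.68 ± 0.21% in LPS+siAtg5, 3.53 ± 0.27% in LPS+dNC and 3.58 ± 0.19% in LPS (mean ± SD). In bulk RNA, fewer cells of one type and less RNA per cell cannot be told apart.

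**Figure D1:**
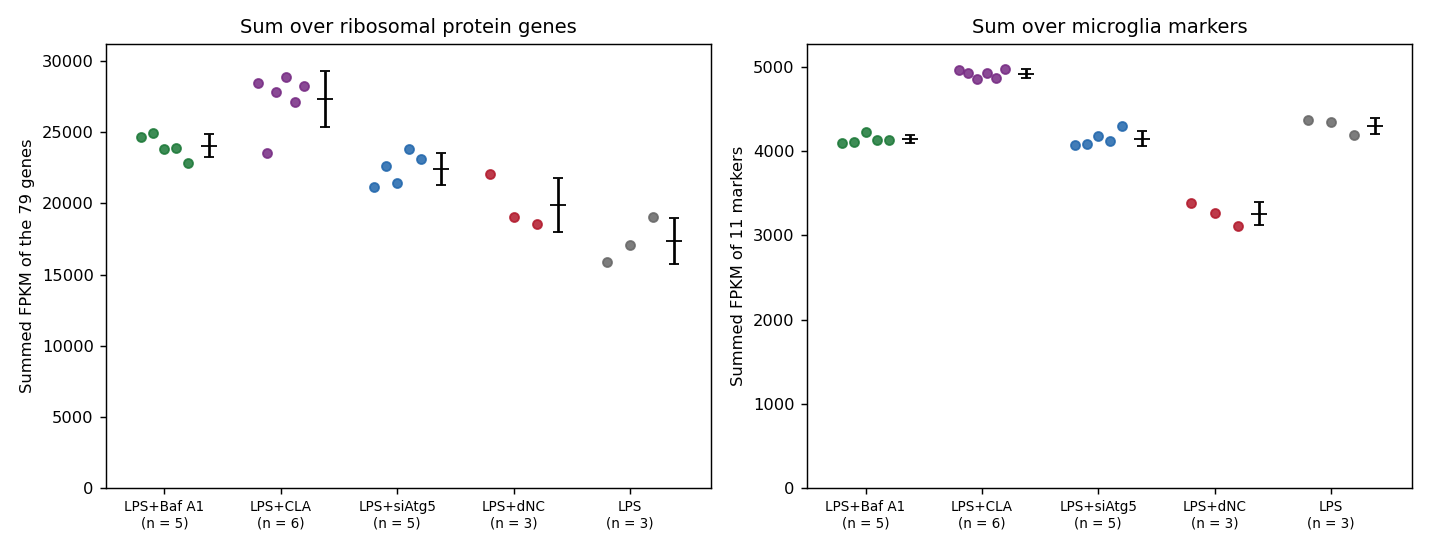
Summed FPKM of the 79 ribosomal protein genes (left) and of 11 microglia markers (right) in each library, with the mean and SD of each group beside the points. The ribosomal sums of LPS+Baf A1, LPS+CLA and LPS+siAtg5 all lie above the 3 LPS libraries, whereas the microglia sums are highest in LPS+CLA (4860 to 4981) and lowest in LPS+dNC (3115 to 3392).

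With bafilomycin A1, nearly the whole set was higher than with LPS alone. Of the 78 genes, 75 were called higher and none lower at a limma adjusted p under 0.05 (Benjamini-Hochberg over all genes), and all 78 changes were positive. Of all 11070 genes, 32.7% were called higher and 25.1% lower, or 57.8% in either direction. The median log2 change was 0.49 for the 78 genes and 0.04 for all genes. In 74 genes every LPS+Baf A1 library lay above every LPS library, a pattern seen in 30.8% of all genes. Without the 3 libraries that stood apart, a choice that widens this difference, 76 genes were called higher and the median was 0.56. Of the 11 microglia markers, 5 were called higher and 5 lower in this comparison, and their part in the result was not tested.

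The rises with bafilomycin A1 were of like size across both subunits, with an SD of 0.16 between genes on the log2 scale. The median was 0.47 over 46 large-subunit genes, of which 45 were called higher, and 0.50 over 30 small-subunit genes, of which 28 were called higher. The largest changes were those of Rpl39, which lines the exit tunnel of the large subunit, Rpl10a and Rpl3, which reaches the peptidyl transferase centre. Rpl39 had 67.1, 81.4, 72.5, 70.3 and 65.6 FPKM in LPS+Baf A1, against 33.0, 38.4 and 48.6 in LPS. All 5 treated libraries lay above all 3 LPS libraries (log2 change 0.83 ± 0.16 SE, limma adjusted p = 0.000158). Rpl3 had 274, 271, 261, 265 and 259 FPKM in LPS+Baf A1, against 143, 147 and 164 in LPS, again with no overlap (0.81 ± 0.07, limma adjusted p = 7.06e-10). Rpl10a averaged 163 ± 9.2 FPKM in LPS+Baf A1 and 92.6 ± 12.8 in LPS (SD, n = 5 and 3), a log2 change of 0.81.

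The 3 genes that were not called with bafilomycin A1 were Rps24, Rpl7 and Rps29. Rps24 had 898, 805, 828, 813 and 766 FPKM in LPS+Baf A1, against 739, 790 and 894 in LPS. Its groups overlapped almost wholly (log2 change 0.03 ± 0.09, limma adjusted p = 0.824). Rpl7 had a log2 change of 0.12 ± 0.06 (limma adjusted p = 0.106), and Rps29, whose LPS libraries spread between 131 and 212 FPKM, one of 0.39 ± 0.21 (limma adjusted p = 0.119).

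With CLA, the increase covered 77 of the 78 genes, again with none called lower and all 78 changes positive. The background was 40.4% of all genes called higher and 22.6% called lower, or 63.1% in either direction. The median log2 change was 0.65 for the ribosomal protein genes and 0.09 for all genes, and in 76 genes no LPS+CLA library overlapped an LPS library on the higher side, as in 32.7% of all genes. Without the 3 libraries that stood apart, a choice that widens this difference, all 78 genes were called higher and the median was 0.78. The large-subunit genes had a median of 0.66 and the small-subunit genes one of 0.64. Of the microglia markers, 4 were called higher and 3 lower, and their part in the result was not tested.

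Rpsa, the small-subunit protein also known as the laminin receptor precursor, showed the largest change with CLA. It had 294 to 365 FPKM (median 357) in LPS+CLA, against 150, 152 and 173 in LPS. The lowest LPS+CLA value, of replicate 2, was still above every LPS library (log2 change 1.13 ± 0.06, limma adjusted p = 7.16e-13). Rpl36a, a large-subunit protein, had 106 to 161 FPKM (median 151) in LPS+CLA, against 61.4, 68.2 and 73.5 in LPS (1.08 ± 0.11, limma adjusted p = 2.06e-08). Rplp1, an acidic protein of the stalk that recruits elongation factors, had 459 to 613 FPKM (median 590) in LPS+CLA, against 237, 280 and 307 in LPS (1.05 ± 0.09, limma adjusted p = 1.07e-09). Rps24 was the single gene not called: it had 716 to 934 FPKM (median 901) in LPS+CLA, against 739, 790 and 894 in LPS, and the groups overlapped.

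With the siRNA against Atg5, the result depended on what the libraries were set against and how they were scaled. Against LPS alone, 71 of 78 genes were called higher and 1 lower. The background was high here, with 61.2% of all genes called higher and 15.6% lower, or 76.8% in either direction. The median log2 change was 0.40 for the ribosomal protein genes and 0.31 for all genes, so the set lay only 0.08 above the general shift. Scaling by the median of gene ratios, which removes that shift, left 13 genes called higher and 8 lower. Under that scaling 35.8% of all genes were called higher and 34.6% lower. Equal sums per library left 73 of the 78 genes higher and 1 lower, against 61.7% and 14.9% of all genes. In 58 of the 78 genes (74.4%) every LPS+siAtg5 library lay above every LPS library, as in 57.2% of all genes. Without the 3 libraries that stood apart, a choice that widens this difference, 77 were called higher.

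LPS+siAtg5 libraries also carried markers of other cells, which the other groups had at low levels. The 10 astrocyte markers summed to 336 to 393 FPKM in LPS+siAtg5, against 5.63 to 20.4 in LPS+dNC and 9.25 to 14.9 in LPS, and 10 of 10 were called higher against LPS. The neuron markers summed to 53.8 to 67.3 FPKM in LPS+siAtg5, against 12.4 to 16.1 in LPS, with 6 of 6 tested called higher. The fibroblast, mural and endothelial markers summed to 91.6 to 122 FPKM in LPS+siAtg5, against 11.1 to 16.0 in LPS, with 6 of 7 called higher. The oligodendrocyte lineage markers summed to 33.7 to 36.9 FPKM, against 14.9 to 15.5 in LPS, with 5 of 6 called higher. Of the 9 fibroblast, mural and endothelial markers listed, 8 had an entry in the series. No listed marker with an entry was at 0 in all LPS+siAtg5 libraries, and Rgs5 was at 0 in all libraries of the other 4 groups. The part of these cells in the ribosomal result was not tested. Markers of other cells also differed with the other treatments, at low sums. With Baf A1 against LPS, 3 of 10 astrocyte markers were called higher and 1 lower, 4 of 7 fibroblast, mural and endothelial markers were higher, 2 of 6 oligodendrocyte lineage markers were higher and 1 lower, and 3 of 6 neuron markers were lower. With CLA, 2 of 10 astrocyte markers were higher and 3 lower, 4 of 7 fibroblast, mural and endothelial markers were higher, 2 of 6 oligodendrocyte lineage markers were higher and 2 lower, and 6 of 6 neuron markers were lower. The fibroblast, mural and endothelial sum was 16.8 to 22.2 FPKM in LPS+Baf A1 and 14.7 to 27.7 in LPS+CLA. The neuron sum was 7.08 to 10.3 in LPS+Baf A1 and 0.86 to 7.13 in LPS+CLA, and the astrocyte sum was 17.9 to 20.7 in LPS+Baf A1 and 10.9 to 15.5 in LPS+CLA. The part of these markers in the Baf A1 and CLA results was not tested.

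Several genes stood out from the rest of the set with siAtg5. Rps27l, a paralog of Rps27 known as a p53 target gene, had 102, 116, 109, 134 and 125 FPKM in LPS+siAtg5, against 39.6, 40.4 and 52.1 in LPS. Every LPS+siAtg5 library lay far above every LPS library (log2 change 1.40 ± 0.11, limma adjusted p = 2.41e-10). Rps2, a small-subunit protein at the messenger RNA entrance, had 549, 565, 544, 544 and 588 FPKM in LPS+siAtg5, against 270, 292 and 318 in LPS (0.93 ± 0.06, limma adjusted p = 2.19e-12). Rps19, known from Diamond-Blackfan anaemia in humans, averaged 187 ± 22 FPKM in LPS+siAtg5 and 101 ± 13 in LPS (SD, n = 5 and 3), a log2 change of 0.88. Rps24 had 652, 670, 668, 727 and 667 FPKM in LPS+siAtg5, against 739, 790 and 894 in LPS, and was the only gene called lower (-0.25 ± 0.09, limma adjusted p = 0.0196). Leaving out LPS replicate 3 ended that call. The 6 genes not called had log2 changes of 0.06 for Rps9 to 0.42 for Rps29.

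**Figure D2:**
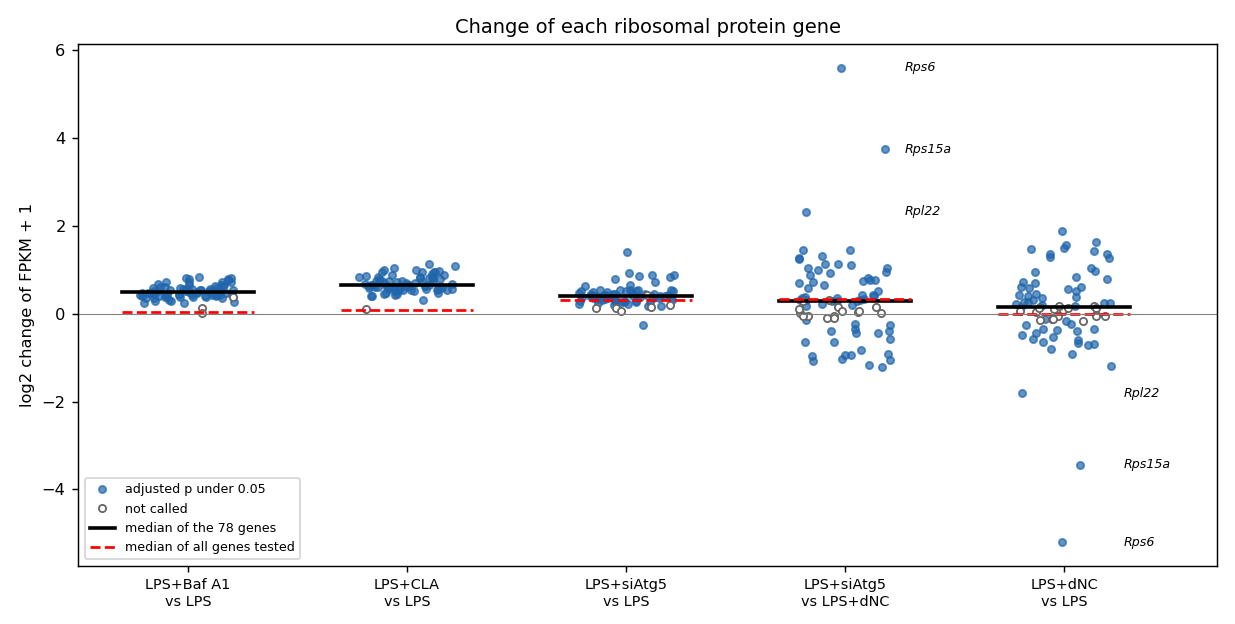
Log2 change of FPKM + 1 for each of 78 ribosomal protein genes in 5 comparisons, with filled points called at a limma adjusted p under 0.05, the median of the 78 genes as a black line and that of all 11070 genes as a dashed line. The changes cluster above 0 for LPS+Baf A1 and LPS+CLA against LPS, lie near the median of all genes for LPS+siAtg5 against LPS (13 higher and 8 lower under median-of-ratios scaling), and spread in both directions wherever LPS+dNC enters, where the median turned to -0.04 under median-of-ratios scaling (LPS+siAtg5 against LPS+dNC) and to -0.07 under equal sums (LPS+dNC against LPS).

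Taking the calls against LPS together, 76 of the 78 genes moved in several groups, meaning that they were called in at least 2 of LPS+Baf A1, LPS+CLA and LPS+siAtg5, and all of these were higher. In all 3 groups, 70 genes were higher. Of all genes, 41.5% were higher in at least 2 and 22.9% in all 3, and the 3 comparisons share their LPS libraries. Under median-of-ratios scaling 75 genes were higher in at least 2 groups but only 13 in all 3. The exceptions were Rps29, called with CLA only, and Rps24, called only lower with siAtg5. Among the genes that moved furthest in all 3 groups, Rps2 had log2 changes of 0.66 with Baf A1, 1.01 with CLA and 0.93 with siAtg5. Rpsa had changes of 0.77 with Baf A1, 1.13 with CLA and 0.85 with siAtg5, Rplp1 of 0.79, 1.05 and 0.79, and Rps18, a protein of the small-subunit head, of 0.73, 0.95 and 0.66. Rpl39l was called in all 3 groups too, but at levels of 0.39 to 2.89 FPKM over all libraries.

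The group means of FPKM as deposited followed a common order, in which the place of LPS+siAtg5 depended on the scaling. The LPS+CLA mean was the highest of the 4 groups without LPS+dNC in 75 of 78 genes, and the LPS mean the lowest in 77. Under median-of-ratios scaling only 13 of the 78 genes were called higher than LPS in all 3 treated groups. The changes of Rps15a, Rpl10a, Rps9 and Rpl13a in LPS+siAtg5 against LPS were then negative (-0.04, -0.09, -0.29 and -0.03). The full order of LPS+CLA above LPS+Baf A1 above LPS+siAtg5 above LPS held in 55 genes, and neighbouring groups were not tested against each other. Rps6, the small-subunit protein phosphorylated by S6 kinases, did not keep the full order: it averaged 605 ± 41 FPKM in LPS+CLA, 480 ± 7.8 in LPS+Baf A1, 487 ± 15 in LPS+siAtg5 and 368 ± 19 in LPS (SD, n = 6, 5, 5 and 3). Its LPS+Baf A1 and LPS+siAtg5 libraries overlapped. Rpl5 and Rpl11, which carry 5S ribosomal RNA into the large subunit and bind MDM2 when free, had log2 changes of 0.25 and 0.45 with Baf A1, 0.53 and 0.72 with CLA, and 0.30 and 0.53 with siAtg5, all called; that of Rpl5 with siAtg5 was -0.06 under median-of-ratios scaling. Rps3 at the messenger RNA entry channel had changes of 0.53, 0.64 and 0.43 with Baf A1, CLA and siAtg5. Rps27a, which is made as a fusion with ubiquitin, had changes of 0.61, 0.65 and 0.50.

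LPS+dNC differed in kind: instead of shifting together, the genes spread. Against LPS alone, 37 genes were called higher and 23 lower. Of all genes, 29.0% were called higher and 28.1% lower, or 57.2% in either direction. Without the 3 libraries that stood apart, 40 were called higher and 24 lower. The SD between genes was 1.01 on the log2 scale, against 0.16 for LPS+Baf A1, 0.19 for LPS+CLA and 0.22 for LPS+siAtg5 over the same LPS libraries. In LPS+dNC it was 0.77 over the large-subunit genes and 1.335 over the small-subunit genes, which include the very low Rps6 and Rps15a. Over all genes the SD was 0.60 for LPS+dNC, 0.46 for LPS+Baf A1, 0.54 for LPS+CLA and 0.74 for LPS+siAtg5. The median log2 change of LPS+dNC against LPS was 0.15 for the ribosomal protein genes and 0.00 for all genes. Equal sums per library turned the median of the ribosomal protein genes to -0.07, with 23 genes higher and 32 lower. Under equal sums 18% of all genes were called higher and 43% lower. Across the 78 genes, the Pearson correlation of mean log2 levels between any pair of the other 4 groups was 0.98 or 0.99, and with LPS+dNC it was 0.65 to 0.68. These correlations are across genes, which are not independent replicates and share their libraries. In 31 genes every LPS+dNC library lay above every LPS library and in 22 below, as in 27.5% and 26.1% of all genes.

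Microglia markers differed in LPS+dNC as well: 3 of 11 were called higher than in LPS and 6 lower. Csf1r, the receptor on which microglia depend, averaged 153 ± 30 FPKM in LPS+dNC and 869 ± 257 in LPS, and Cx3cr1, the fractalkine receptor, averaged 0.18 ± 0.08 in LPS+dNC and 7.79 ± 1.9 in LPS (SD, n = 3 each). Of the astrocyte markers 3 were higher and 3 lower, of the fibroblast, mural and endothelial markers 2 higher and 1 lower, and 3 of 6 neuron and 3 of 6 oligodendrocyte lineage markers were lower. The part of these differences in the ribosomal result was not tested.

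The submitters' processing notes list the same tools for all 22 libraries, but whether the LPS+dNC values were made with the same annotation and settings as the others is not stated and was not tested, so a low value there may not be a low transcript level. Rps6 was nearly at 0 in the LPS+dNC libraries and nowhere else. It had 7.31, 11.03 and 9.13 FPKM in LPS+dNC, against 353, 361 and 389 in LPS. The LPS+Baf A1, LPS+CLA and LPS+siAtg5 libraries had 469 to 640 FPKM, so no other library came near the LPS+dNC level. The log2 change was -5.20 ± 0.09 in LPS+dNC against LPS. Rps15a, another protein of the small subunit, had 19.3, 16.9 and 17.9 FPKM in LPS+dNC, against 187, 222 and 206 in LPS, and 222 to 323 in the libraries of the other 3 groups. Its log2 change was -3.44 ± 0.10. These 2 genes met the rule for low in LPS+dNC only: a mean more than 4 times below the lowest mean of the other 4 groups, with no overlap of libraries. No gene of the set was 4-fold high in LPS+dNC only. The measured values chose these genes, so no test is attached.

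Rps15a lay well inside the 4-fold threshold, with an LPS+dNC mean 0.088 of the lowest other group mean. Just outside the threshold, the LPS+dNC mean of Rpl22 was 0.28 of the lowest other group mean. Rpl22, a large-subunit protein that binds RNA outside the ribosome too, had 28.5, 24.95 and 26.0 FPKM in LPS+dNC, against 96.0, 93.1 and 96.3 in LPS. At a 2-fold threshold 4 genes met the rule, Rpl22 among them, and with equal sums per library Rpl22 met the 4-fold rule too, which made 3 genes. The same 4-fold rule took 50 of 11052 genes of the table as low in LPS+dNC only (0.452%) and 78 as high (0.706%). The gene nearest to a 4-fold excess was Rpl39, whose LPS+dNC mean of 150 FPKM was 1.86 times the highest other group mean.

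**Figure D3:**
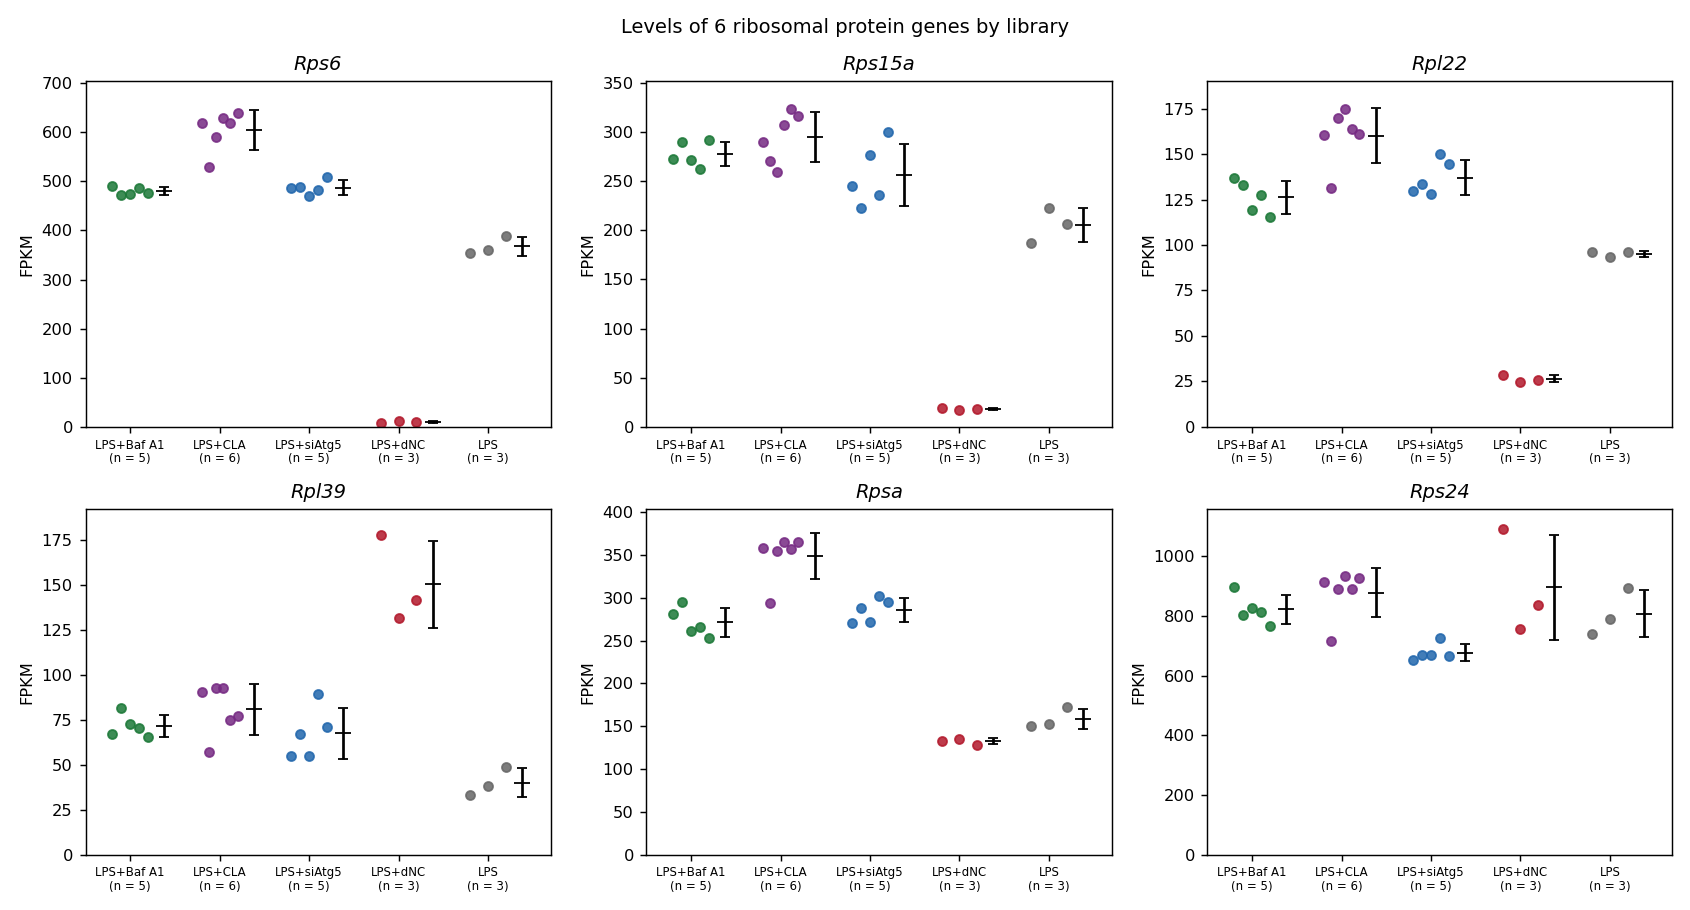
FPKM of Rps6, Rps15a, Rpl22, Rpl39, Rpsa and Rps24 in each of 22 libraries, with the mean and SD of each group. In the 3 LPS+dNC libraries Rps6, Rps15a and Rpl22 are far below all others and Rpl39 is above all others, whereas Rpsa is high in LPS+Baf A1, LPS+CLA and LPS+siAtg5 and Rps24 overlaps between most groups.

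Counting Rps6, Rps15a, Rpl22 and Rpl39, the LPS+dNC libraries lay outside the range of all 19 others in 33 of the 78 genes. In 22 genes all 3 LPS+dNC libraries were below every other library, as in 15.2% of all genes, and in 11 genes they were above every other, as in 11.1% of all genes. The 11 high genes were Rpl28, Rpl30, Rpl35, Rpl38, Rpl39, Rplp2, Rps16, Rps23, Rps27, Rps28 and Rps29. Rpl39 had 178, 132 and 142 FPKM in LPS+dNC, against 33.0, 38.4 and 48.6 in LPS (log2 change 1.89 ± 0.18, limma adjusted p = 1.27e-08). Rpl35, which lies by the exit tunnel, had 480, 384 and 385 FPKM in LPS+dNC, against 120, 132 and 150 in LPS (1.63 ± 0.12, limma adjusted p = 9.81e-11). Rpl38, known in mice for the translation of Hox messenger RNAs, had 325, 266 and 286 FPKM in LPS+dNC, against 86.7, 98.7 and 108 in LPS (1.57 ± 0.16, limma adjusted p = 1.60e-08). In all 3 genes the groups were far apart.

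Partners in the same structure were not all called. Of the stalk proteins, Rplp2 had 326, 318 and 310 FPKM in LPS+dNC, against 88.9, 117 and 136 in LPS, and rose (1.49 ± 0.13, limma adjusted p = 1.55e-09). Rplp1 rose by 0.84 ± 0.11 on the log2 scale (limma adjusted p = 4.20e-07), and Rplp0, the base of the stalk, had a change of -0.13 ± 0.08 that was not called (limma adjusted p = 0.178). Of the 5S partners, Rpl5 fell (-0.64 ± 0.07, limma adjusted p = 2.50e-08), and Rpl11 had a change of 0.10 ± 0.06 that was not called (limma adjusted p = 0.173). Rps3 fell by 0.70 on the log2 scale. Rpl13a, which human monocytes release from the ribosome to silence inflammatory messenger RNAs, fell by 0.92. Rps24 had 1092, 757 and 838 FPKM in LPS+dNC, against 739, 790 and 894 in LPS, and LPS+dNC replicate 1 alone exceeded every other library of the series.

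**Figure D4:**
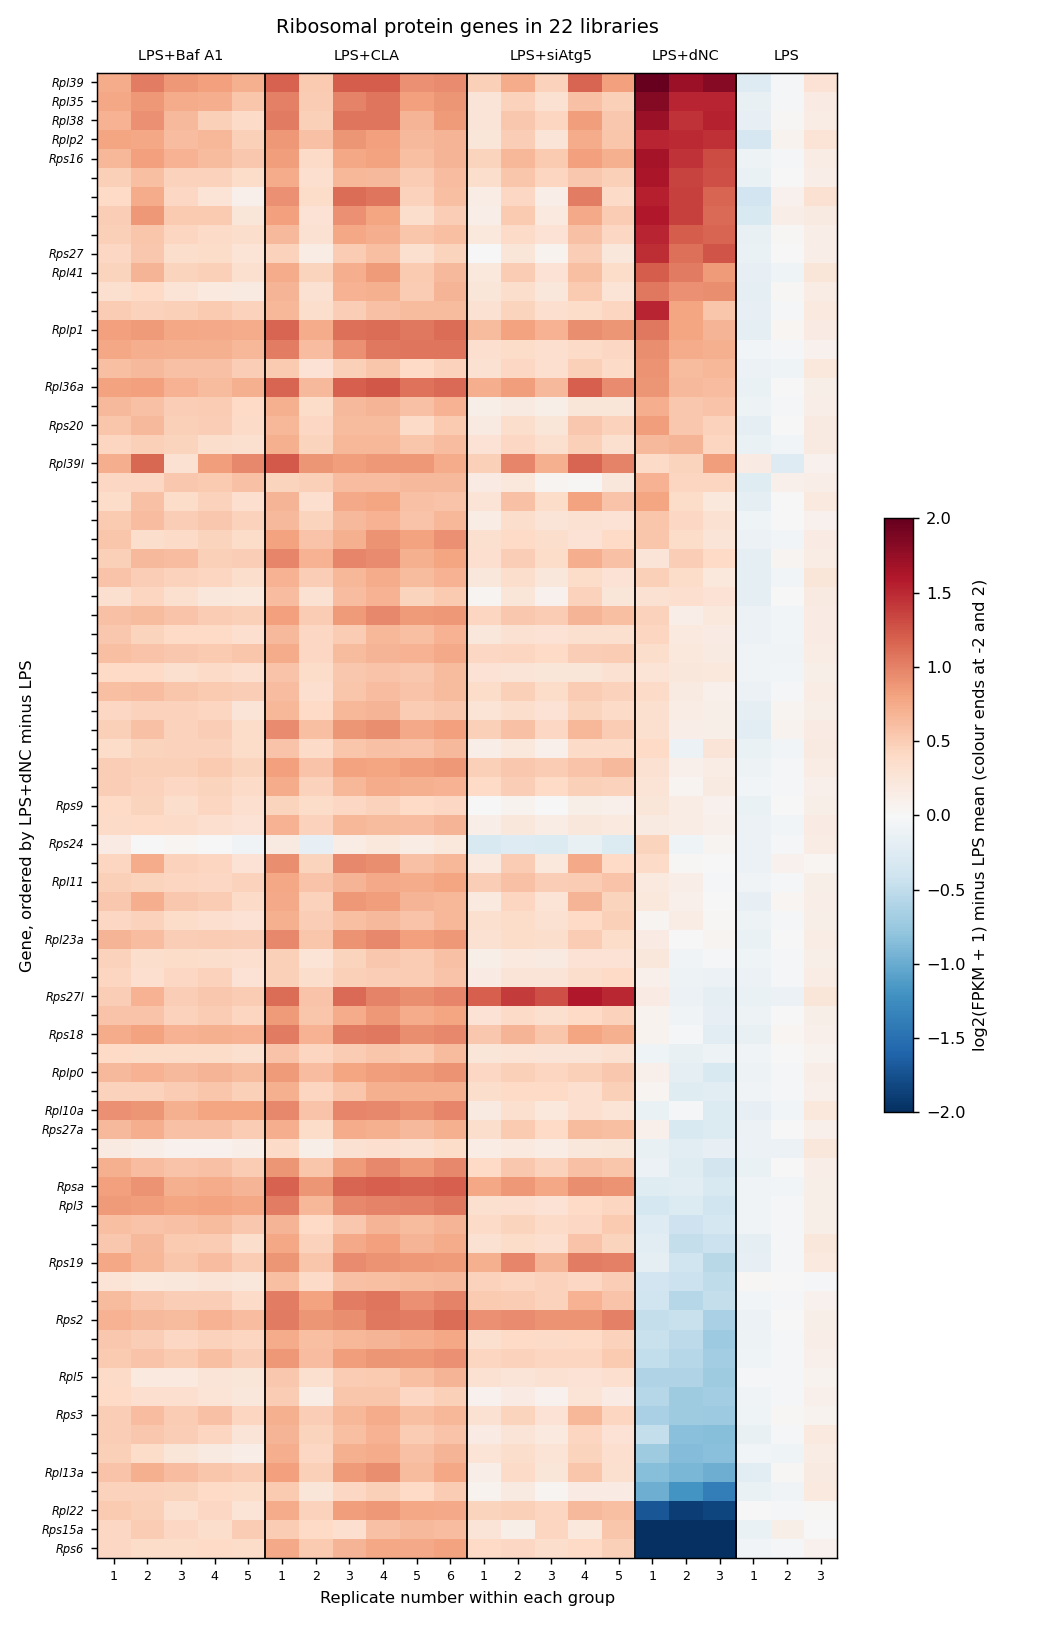
Log2(FPKM + 1) of 78 ribosomal protein genes in each library minus the mean of the 3 LPS libraries, ordered by the LPS+dNC difference, with colours ending at -2 and 2 and only the genes of the naming rule labelled. The columns of LPS+Baf A1, LPS+CLA and LPS+siAtg5 are mostly of 1 colour above the LPS mean (for LPS+siAtg5, little above the shift of all genes), with Rps24 and Rps9 paler, and the LPS+dNC columns run from Rpl39 at the top to Rps6 at the bottom.

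The design text sets the knockdown against LPS+dNC, so these values enter that comparison. In it 42 genes were called higher and 21 lower, against 59.6% and 21.6% of all genes, or 81.2% in either direction. The median log2 change was 0.28 for the ribosomal protein genes and 0.34 for all genes, so the set lay 0.06 below the general shift. Under median-of-ratios scaling the split turned to 26 higher and 32 lower, with a median of -0.04, against 42.4% and 36% of all genes. Equal sums gave 55 higher and 15 lower, against 70.7% and 14.1% of all genes. In 38 genes (48.7%) every LPS+siAtg5 library lay above every LPS+dNC library, and in 18 genes (23.1%) below, as in 57.2% and 19.8% of all genes. Marker genes moved with this comparison as well: 10 of 10 astrocyte, 6 of 6 neuron, 6 of 6 oligodendrocyte lineage and 6 of 7 fibroblast, mural and endothelial markers were called higher, and of 11 microglia markers 9 were higher and 2 lower. Their part in the result was not tested.

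The largest differences in that comparison were those of the genes just described. Rps6 had 487, 489, 469, 482 and 510 FPKM in LPS+siAtg5, against 7.31, 11.03 and 9.13 in LPS+dNC, and a log2 change of 5.60 ± 0.08. Rps15a differed by 3.75 ± 0.09 and Rpl22 by 2.33 ± 0.08. In all of them the LPS+siAtg5 level was within 1.5 times that of LPS. On the other side were Rpl35 with 160, 183, 166, 200 and 185 FPKM in LPS+siAtg5, against 480, 384 and 385 in LPS+dNC (-1.21 ± 0.11, limma adjusted p = 5.93e-10), Rpl39 (-1.16 ± 0.16) and Rps27 (-1.07 ± 0.10). Rpl39 and Rpl35 were higher in LPS+siAtg5 than in LPS (0.73 and 0.42, with a median of 0.31 for all genes). On the scale as deposited they thus had opposite signs against the 2 comparators.

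The LPS+dNC difference was compared with properties of the transcripts in the GENCODE annotation of GRCm38, which may not be the annotation the authors used. Against LPS, the log2 change of LPS+dNC had a Spearman correlation of -0.46 with the length of the longest coding transcript over 78 genes, and of -0.24 over 11057 genes of the table. For LPS+Baf A1 against LPS it was -0.23 over the 78 genes and -0.27 over all. These are descriptions across genes that share libraries and depth. In the 25 genes whose longest coding transcript is at least 2 times the shortest, the median LPS+dNC change was -0.34 and 15 changes were negative. In the 26 genes with 1 coding transcript the median was 0.31 and 6 were negative. Rps15a has 6 coding transcripts of 250 to 5179 nt and Rpl22 has 3 of 474 to 2051 nt, but Rps6 has 1 of 878 nt.

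**Figure D5:**
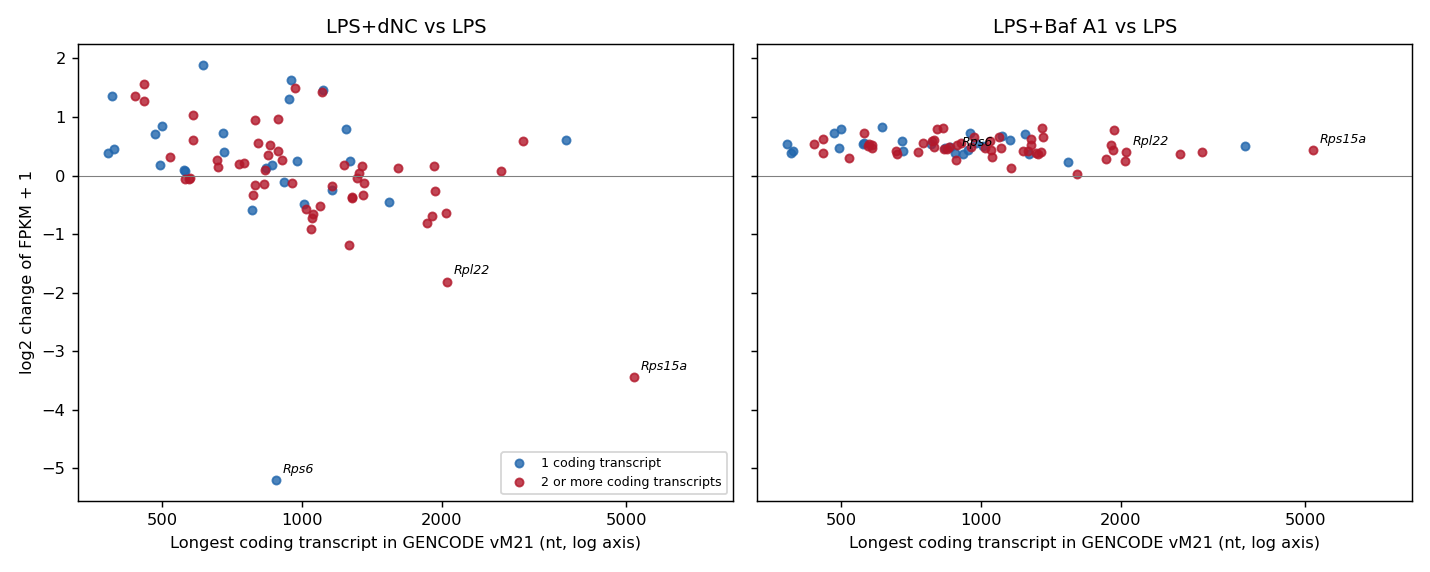
Log2 change of FPKM + 1 against the length of the longest coding transcript (log axis) for 78 ribosomal protein genes, in LPS+dNC against LPS (left) and LPS+Baf A1 against LPS (right). On the left, genes with long transcripts such as Rpl22 and Rps15a lie low while Rps6, with 1 transcript of 878 nt, is lower still, and on the right all points lie above 0.

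Ribosomal protein genes have many processed pseudogenes, so reads can match several places. Of the 79 genes, 76 shared at least one 50-base stretch of their transcripts with another annotated gene, 20 shared at least 50% of such stretches, and the median was 34.5%. For Rps6, 84.6% were shared, with 14 other genes, all of them pseudogenes. For Rps15a 5.35% were shared and for Rpl22 5.16%. The sources used here do not say how such reads were assigned, so levels of single genes are uncertain to that extent, and the part of read sharing or transcript choice in the LPS+dNC pattern was not tested.

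By profile over the 22 libraries, the 5 genes of the table most like Rps6 were Rps15a (Pearson r = 0.994 of log2 FPKM + 1), Prpf19, Ndufa11, Maged2 and Mrpl17, a protein of the mitochondrial ribosome (0.988). All 5 had their lowest group mean in LPS+dNC. Ndufa11, a subunit of respiratory complex I, averaged 8.37 FPKM in LPS+dNC and 46.6 in LPS, and Mrpl17 averaged 3.85 in LPS+dNC and 34.2 in LPS. These correlations are descriptions over 22 libraries that fall into 5 groups.

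Ribosomal proteins with other names were mostly higher with Baf A1 and CLA too. Fau, a fusion of Rps30 with a ubiquitin-like protein, rose by 0.38 with Baf A1 and by 0.36 with CLA, and had a log2 change of -0.03 with siAtg5 against LPS that was not called. Rps3a1, a protein of the small subunit, had changes of 0.29 with Baf A1, 0.55 with CLA and 0.39 with siAtg5, all called. Rack1, a scaffold of the small subunit that binds protein kinase C, rose by 0.72 with Baf A1, 0.88 with CLA and 0.56 with siAtg5, and fell by 0.25 in LPS+dNC. The paralog Rpl22l1 had log2 changes of 0.70 with Baf A1, 0.46 with CLA and 0.34 with siAtg5 (limma adjusted p = 0.000355, 0.00775 and 0.0422), and was not called in LPS+dNC against LPS, where Rpl22 itself was low.

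Other genes linked to translation moved less uniformly. A list of 18 genes, taken as having the pyrimidine tract, held translation factors and also Tpt1, Npm1, Hnrnpa1, Nap1l1, Naca and Btf3. Whether each carries the tract was not checked here. Of these 18, 12 were called higher and 2 lower with Baf A1 (median 0.20). With CLA 16 were higher and none lower (0.43, with 1 lower under both other scalings). The shares of all genes called higher and lower were 32.7% and 25.1% with Baf A1, and 40.4% and 22.6% with CLA. With siAtg5 against LPS, 16 of the 18 listed genes were higher and 1 lower (0.37), against 61.2% and 15.6% of all genes. Median-of-ratios scaling left 2 higher and 3 lower there, against 35.8% and 34.6% of all genes. In LPS+dNC 4 of the 18 listed genes were higher and 12 lower (-0.39), against 29.0% and 28.1% of all genes. Eef2, the elongation factor of translocation, averaged 539 FPKM in LPS+Baf A1 and 372 in LPS, and Eef1g, a subunit of elongation factor 1, averaged 195 in LPS+CLA and 101 in LPS. Tpt1 went the other way with siAtg5, with 602 FPKM in LPS+siAtg5 and 845 in LPS.

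Of 27 further translation factors, 11 were called higher and 8 lower with Baf A1 (median -0.02) and 21 higher and 2 lower with CLA (0.39). The shares of all genes were 32.7% and 25.1% with Baf A1, and 40.4% and 22.6% with CLA. Eif3i, a subunit of the initiation factor eIF3, averaged 68.3 FPKM in LPS+Baf A1, 76.5 in LPS+CLA and 42.5 in LPS. Eif5b, which joins the subunits, averaged 15.5 in LPS+Baf A1 and 27.5 in LPS. With siAtg5 against LPS 19 of the 27 were higher and 3 lower (0.29), against 61.2% and 15.6% of all genes. Median-of-ratios scaling turned this to 4 higher and 10 lower, against 35.8% and 34.6% of all genes. In LPS+dNC 3 of the 27 were higher and 20 lower (-0.24), against 29.0% and 28.1% of all genes.

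Of 45 ribosome assembly genes, 14 were called higher and 14 lower with Baf A1 (median 0.08, and -0.01 under equal sums), where 32.7% of all genes were higher and 25.1% lower. With CLA 33 were higher and 2 lower (0.44), where the shares of all genes were 40.4% and 22.6%. Bysl, an assembly factor of the small subunit, averaged 6.36 FPKM in LPS+Baf A1, 9.11 in LPS+CLA and 4.197 in LPS. Nop58, a core protein of box C/D ribonucleoproteins, averaged 16.6 in LPS+Baf A1 and 28.2 in LPS, and fell (log2 change -0.73, limma adjusted p = 3.82e-10). Fbl, the methyltransferase of those particles, averaged 48.4 in LPS+CLA and 27.5 in LPS (0.79, limma adjusted p = 1.61e-11). With siAtg5 against LPS 39 of the 45 were higher and 2 lower (0.35), against 61.2% and 15.6% of all genes. Median-of-ratios scaling left 11 higher and 6 lower there, against 35.8% and 34.6% of all genes. In LPS+dNC 4 of the 45 were higher and 31 lower (-0.39), against 29.0% and 28.1% of all genes. The difference between the Baf A1 and CLA changes of these genes was not tested.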

How the data were processed

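RNA was enriched for poly(A) and sequenced on an Illumina instrument, per the labels' protocols. The authors deposited FPKM for each gene and library, per the file headers, though those of LPS+dNC give no unit. Per the submitters' processing notes, CASAVA 1.7, fastp 0.18.0, Bowtie2 2.2.8, HISAT2 and StringTie 1.3.1 were used. Genome build and annotation were not given in the sources used here. Of the table's 15726 lines Plin2 takes a pair, and the first was used. Sums per library ranged from 469750 to 575125 FPKM.

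The filter kept the 11070 genes that reached 1 FPKM in 3 or more libraries. The values are not counts, so the limma branch of the planned design applied. Log2(FPKM + 1) was fitted with limma 3.58.1 in R 4.3.3 as 1 model with 5 group means (empirical Bayes with trend and robust options). Fold changes are on that scale and understate those of low genes. P-values were adjusted over all genes by Benjamini-Hochberg, and a gene was called under 0.05. The procedure was checked on simulated data. The genes named are those low in LPS+dNC only, the 3 largest rises and falls per comparison, those furthest changed in several groups, the 5 highest and lowest levels, and fixed members of known role; of other lists, up to 3 per direction by adjusted p. Rack1, Rps3a1, Rpl7, Rps29 and the 11 genes above all other libraries in LPS+dNC were named after their values were seen. Some genes are not reported here. The members and lists were chosen with earlier results of these data known. Start-site windows and transcripts were read from RefSeq and GENCODE tables. Replicates were numbered by their titles and not paired. Alternatives were other scalings, pseudocount and filter, fits of 2 groups, a replicate block, and leaving out libraries.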

Additional observations from a re-analysis of the deposited data

Results flagged for a closer look

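In groups of 4 to 10 libraries, a library far from the rest of its group was looked for in the named genes and the sums, which gave 15 such values among 96 groups tested; chance alone gives about 1 in 20 groups. Of these, 12 belonged to LPS+CLA replicate 2, and all of them were the lowest of their group. In that library the 79 genes summed to 23520 FPKM, or 4.55% of all FPKM. Rpl10a stood at 137 FPKM, Rpl22 at 131, Rpl3 at 241 and Rpl36a at 106, each below the other 5 LPS+CLA libraries. Rplp1 was at 459 FPKM, Rps18 at 408, Rps19 at 148 and Rps24 at 716. Rps27a was at 283 FPKM and Rpsa at 294, which was still above every LPS library. The remaining values were high ones: Rps27l at 71.2 FPKM in LPS+Baf A1 replicate 2, Rpl39l at 2.89 FPKM in LPS+CLA replicate 1 and Rps24 at 727 FPKM in LPS+siAtg5 replicate 4.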

How the results depend on the processing

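The counts of ribosomal protein genes called with Baf A1 and with CLA stayed within 1.5 times their reported values under every alternative run, with 71 to 76 genes higher for Baf A1, 77 for CLA and 0 lower in both when single libraries were left out. Leaving out single libraries gave 40 to 45 higher and 19 to 22 lower for LPS+siAtg5 against LPS+dNC, 60 to 77 higher and 0 to 1 lower for LPS+siAtg5 against LPS (0 without LPS replicate 3), and 29 to 41 higher and 20 to 25 lower for LPS+dNC against LPS. Median-of-ratios scaling gave 26 higher and 32 lower for LPS+siAtg5 against LPS+dNC (median -0.041) and 13 higher and 8 lower for LPS+siAtg5 against LPS, where it turned the signs of Rps15a (-0.042), Rpl10a (-0.0865), Rps9 (-0.29), Rpl5 (-0.056) and Rpl13a (-0.031). It also turned Rpl23a against LPS+dNC (-0.020). This scaling removes a shift of all genes by construction, and the shares of all genes called under it are given with the results. Equal sums gave 23 higher for LPS+dNC against LPS (median -0.072; Rps9 -0.062) and turned Rps9 to 0.13 for LPS+siAtg5 against LPS+dNC. The rule for low in LPS+dNC only took 4 genes at 2-fold, and 3 at 4-fold under equal sums, which added Rpl22. Fits without the LPS+dNC libraries, an alternative chosen after seeing the data, left 75, 77 and 71 genes higher with Baf A1, CLA and siAtg5 against LPS.

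Replicates that share a number did not deviate together: their correlations ran from -0.13 to 0.15. With the replicate number as a block, 23 genes were higher and 17 lower for LPS+dNC against LPS, 76 and 0 for Baf A1, 76 and 0 for CLA, 37 and 20 for LPS+siAtg5 against LPS+dNC, and 64 and 1 for LPS+siAtg5 against LPS. The depth of the libraries is unknown, so no counting error can be given, and groups of 3 limit the precision of LPS and LPS+dNC.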

Other observations

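The 78 genes of the mitochondrial ribosome, which translates the messages of the mitochondrial genome, were also mostly higher in the treated groups than in LPS. With Baf A1 54 were called higher and 3 lower (median log2 change 0.28, all genes 0.04), and with CLA 66 were higher and none lower (0.42, all genes 0.09; 1 lower under both other scalings). The shares of all genes called higher and lower were 32.7% and 25.1% with Baf A1, and 40.4% and 22.6% with CLA. Mrpl12 averaged 34.6 FPKM in LPS+CLA and 15.4 in LPS, and Mrps34 averaged 20.7 in LPS+Baf A1 and 11.04 in LPS. With siAtg5 against LPS 67 of the 78 were higher and none lower, against 61.2% and 15.6% of all genes. Median-of-ratios scaling left 28 higher and 6 lower there, against 35.8% and 34.6% of all genes. For LPS+dNC against LPS, the shares of all genes were 29.0% higher and 28.1% lower. In LPS+dNC 38 were higher and 16 lower (median 0.19, and -0.02 under equal sums), and the genes spread in both directions here too: Mrps16 averaged 22.7 FPKM in LPS+dNC and 2.77 in LPS, whereas Mrpl17 averaged 3.85 in LPS+dNC and 34.2 in LPS.

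Of 18 genes of mTORC1 signalling and the LARP family, 4 were called higher and 8 lower with Baf A1, where 32.7% of all genes were higher and 25.1% lower. With CLA 4 were higher and 5 lower (all genes 40.4% and 22.6%), with siAtg5 9 higher and 4 lower against LPS (61.2% and 15.6%) and 10 higher and 4 lower against LPS+dNC (59.6% and 21.6%), and in LPS+dNC 5 higher and 7 lower than in LPS (29.0% and 28.1%). Myc, a transcription factor that drives ribosome production, averaged 2.85 FPKM in LPS+Baf A1, 9.53 in LPS+CLA, 5.78 in LPS+siAtg5, 1.05 in LPS+dNC and 1.19 in LPS. Sesn2, an inhibitor of mTORC1 that is induced by stress, averaged 11.5 in LPS+Baf A1, 11.4 in LPS+CLA and 18.5 in LPS. Eif4ebp1, a translation repressor that mTORC1 phosphorylates, averaged 16.4 FPKM in LPS+siAtg5, 62.9 in LPS+dNC and 14.7 in LPS. Against LPS, Eif4ebp1 was also called higher with Baf A1 (log2 change 0.43) and CLA (0.79). Larp1 averaged 44.9 in LPS+CLA and 56.5 in LPS, and fell (log2 change -0.31, limma adjusted p = 0.000342). Larp1 was called lower than in LPS with Baf A1 (-0.24) and siAtg5 (-0.28) too, and was not called in LPS+dNC (-0.17).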
